A study of Homo sapiens with 6 samples.

Results

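This is an account of 10 genes that set the pace of the G1 phase in OCI-AML3 cells, an established human acute myeloid leukaemia line. They are the D-type cyclins CCND1, CCND2 and CCND3, the kinases CDK4 and CDK6, the CDK inhibitors CDKN1B, CDKN1C, CDKN2C and CDKN2D, and the retinoblastoma gene RB1. They were chosen by symbol, and each symbol matched 1 of the 60660 gene IDs listed for every library. All 10 passed the filter on low values and are among the 28015 genes tested. There are 3 libraries of cells overexpressing SLC2A3, which encodes the glucose transporter GLUT3, and 3 libraries of cells with an empty pLenti vector. Both groups received 250 µM vitamin C, and no culture without it is analysed here. The labels name neither the promoter of the vector nor whether the cells are clones or pools. They also leave unsaid whether the replicates were cultured apart, and the spread behind every p-value is that between libraries, which may be technical. The values are gene-level normalised reads, that is, read counts divided by 1 factor per library.

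As background, growth signals raise the D-type cyclins, which bind and activate CDK4 and CDK6. These kinases phosphorylate RB1, a repressor of the E2F transcription factors, and so free E2F to switch on cyclin E and the genes of DNA synthesis. The INK4 inhibitors, here CDKN2C (p18) and CDKN2D (p19), bind CDK4 and CDK6 themselves, whereas the CIP/KIP inhibitors CDKN1B (p27) and CDKN1C (p57) mainly block CDK2 complexes. Myeloid and lymphoid cells are known for their reliance on cyclin D3 and CDK6.

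The D-type cyclins carry near their amino end a short motif named LxCxE, which is known from proteins that bind RB1. The first 45 coding bases of each, read from GENCODE 29 transcripts on GRCh38, are shown because they hold this motif in all 3 genes. Capitals mark the 5 codons of the motif.
CCND1: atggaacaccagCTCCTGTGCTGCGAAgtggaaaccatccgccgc
CCND2: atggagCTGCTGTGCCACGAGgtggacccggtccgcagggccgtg
CCND3: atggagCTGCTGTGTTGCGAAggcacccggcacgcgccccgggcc
The motif spans codons 5 to 9 of CCND1 and codons 3 to 7 of CCND2 and CCND3. Over the whole coding sequence, 70.1% of aligned bases were identical between CCND1 and CCND2, 68.2% between CCND1 and CCND3, and 68.4% between CDK4 and CDK6. None of these pairs shared a stretch of 31 bases, and neither did CCND2 with CCND3, CDKN1B with CDKN1C, or CDKN2C with CDKN2D (0 shared in each of the 6 pairs). At this word length no sequence is common to any of the pairs.

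Library depth was 31054462 to 35770556 recovered reads. SLC2A3 itself stood at 4056, 3716 and 4054 normalised reads in the SLC2A3 libraries, against 1194, 1183 and 1257 in the empty vector libraries (limma adjusted p = 7.95e-18). Myeloid markers were abundant in sum: 9 markers summed to 252812 to 266539 normalised reads in the SLC2A3 group and 227221 to 238671 in the empty vector group. Of the 9, 8 had a log2 fold change above 0, as did 14080 of all 28015 tested genes. CTSG was the largest part, averaging 139465 in the SLC2A3 group and 124582 in the empty vector group. MPO was low, averaging 191 and 157 in the same order. Of the 9, limma called PRTN3 and CTSG higher at an adjusted p under 0.05, a call it made for 0.692% of all tested genes, and 5 were higher at an unadjusted p under 0.05, against 5.63% of all tested genes. CD3D, CD3E, MS4A1, HBB and HBA1, which define T cells, B cells and red cells, were at 0 in all 6 libraries. The noncoding RNA RN7SL1 stood at 2233, 6026 and 1922 normalised reads in the SLC2A3 libraries, against 538, 1812 and 705 in the empty vector libraries. It was thus highest in replicate 2 of each group and also rose with SLC2A3 overexpression (log2 fold change 1.74, limma adjusted p = 0.000861). The part of RN7SL1 and of the myeloid markers in the results that follow was not tested.

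Per exon length, CCND3 had the highest RNA level of the 10 genes. Per kb of annotated exon, CCND3 averaged 1731 ± 28.6 normalised reads in the SLC2A3 group and 1774 ± 10.1 in the empty vector group (SD, n = 3 each), and stood at the 94.9th percentile of tested protein-coding genes. CDK4 followed with 953 ± 23.0 and 987 ± 52.7 per kb, CDK6 with 707 ± 57.8 and 744 ± 28.9, and CDKN1B with 689 ± 33.8 and 718 ± 12.9, in the SLC2A3 and empty vector groups. The level per kb of CCND1 was 335 ± 16.3 in the SLC2A3 group and 287 ± 9.27 in the empty vector group. CDKN2C had 280 ± 16.2 and 275 ± 14.4, CDKN2D 156 ± 28.9 and 175 ± 17.2, and RB1 123 ± 11.5 and 133 ± 12.4, in the same order. At the low end, CDKN1C had 20.8 ± 2.82 per kb in the SLC2A3 group and 14.7 ± 4.47 in the empty vector group, and CCND2 2.29 ± 1.08 and 1.97 ± 0.225. Over the 6 libraries, the ranges of CDK6 and CDKN1B overlapped, as did those of CCND1 and CDKN2C and of CDKN2D and RB1. All other neighbours in this order were separate, and the order was the same when the longest transcript was taken as the length. The plot of levels per exon length shows this order by library.

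**Figure D1:**
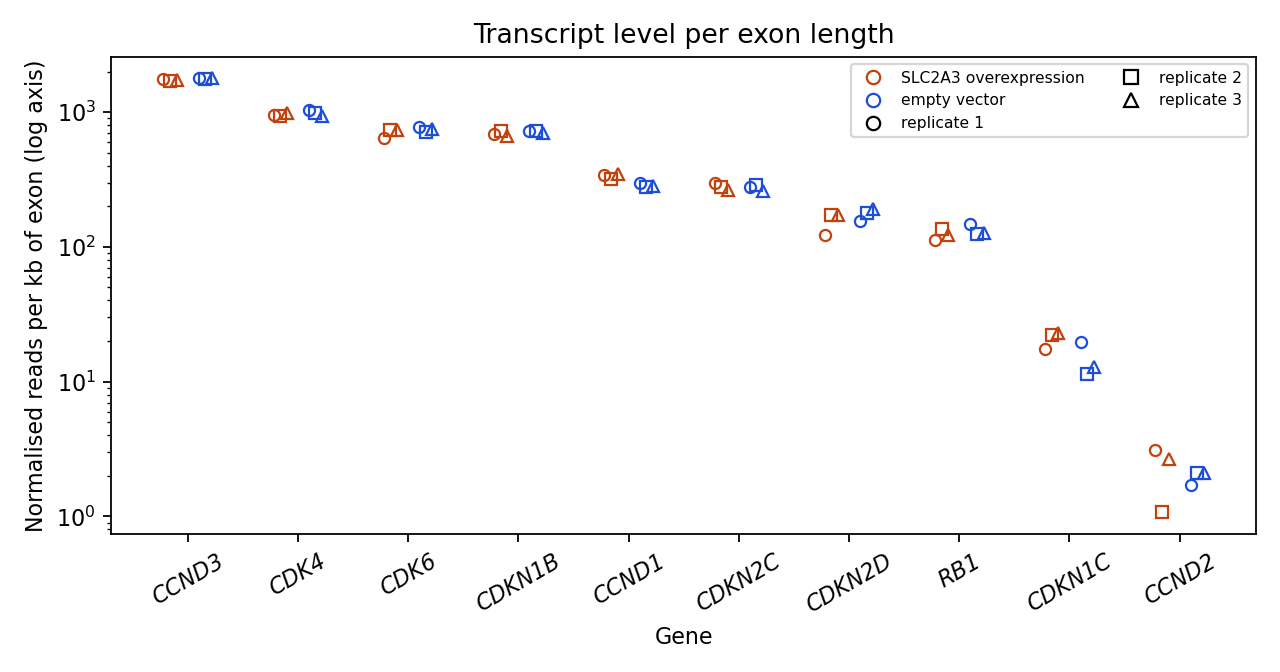
Normalised reads per kb of annotated exon (log axis) for the 10 genes in each of the 3 SLC2A3 overexpression and 3 empty vector libraries, 1 marker per library. CCND3 is the highest at about 1731 per kb in the SLC2A3 group and 1774 in the empty vector group, and CCND2 the lowest at 2.29 and 1.97.

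Among the 3 D-type cyclins, CCND3 made up 83.7% ± 0.601 of the summed level per kb in the SLC2A3 group and 86.0% ± 0.355 in the empty vector group. CCND1 made up 16.2% ± 0.565 in the SLC2A3 group and 13.9% ± 0.366 in the empty vector group, and CCND2 0.110% ± 0.0504 and 0.0954% ± 0.0114 (SD, n = 3 each). These shares were not tested, and they depend on the gene length used: with the longest transcript, CCND1 made up 8.20% in the SLC2A3 group and 6.95% in the empty vector group. Of the summed CDK4 and CDK6 level per kb, CDK6 was 42.5% ± 2.09 in the SLC2A3 group and 43.0% ± 1.27 in the empty vector group. With the longest transcript it was 33.9% and 34.3%, in the same order. The CDK4 level is uncertain, as 43.2% of its exon bases are shared with another gene, TSPAN31. The CDK4 and CDK6 balance thus overlapped between groups, while the CCND1 share did not: it was 15.6% to 16.8% in the SLC2A3 libraries and 13.7% to 14.3% in the empty vector libraries.

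Set against empty vector cells, none of the 10 genes passed the test. By limma-trend on log2(value + 1), with p-values adjusted by Benjamini-Hochberg over 28015 genes, 0 of 10 were called, where 0.692% of all tested genes were called higher, 0.800% lower and 1.49% in either direction. At an unadjusted p under 0.05 there was 1 of 10, CCND1, which was higher. The share of all tested genes past that mark was 11.8%, with 5.63% higher and 6.12% lower. The quasi-likelihood test of edgeR with TMM factors, run on the recovered reads, called 1 of 10, again CCND1 and higher, where it called 1.53% of its tested genes higher, 1.76% lower and 3.29% in either direction. In bulk RNA, a different share of cells in G1 and a different level per cell cannot be told apart. The median log2 fold change of the 10 was -0.04, against 0.00137 over all tested genes. Of the 10, 4 were above and 6 below 0, and of all tested genes 14080 were above and 13935 below. Groups did not overlap for 2 of the 10, CCND1 (higher) and CCND3 (lower), and for 16.3% of all tested genes.

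**Figure D2:**
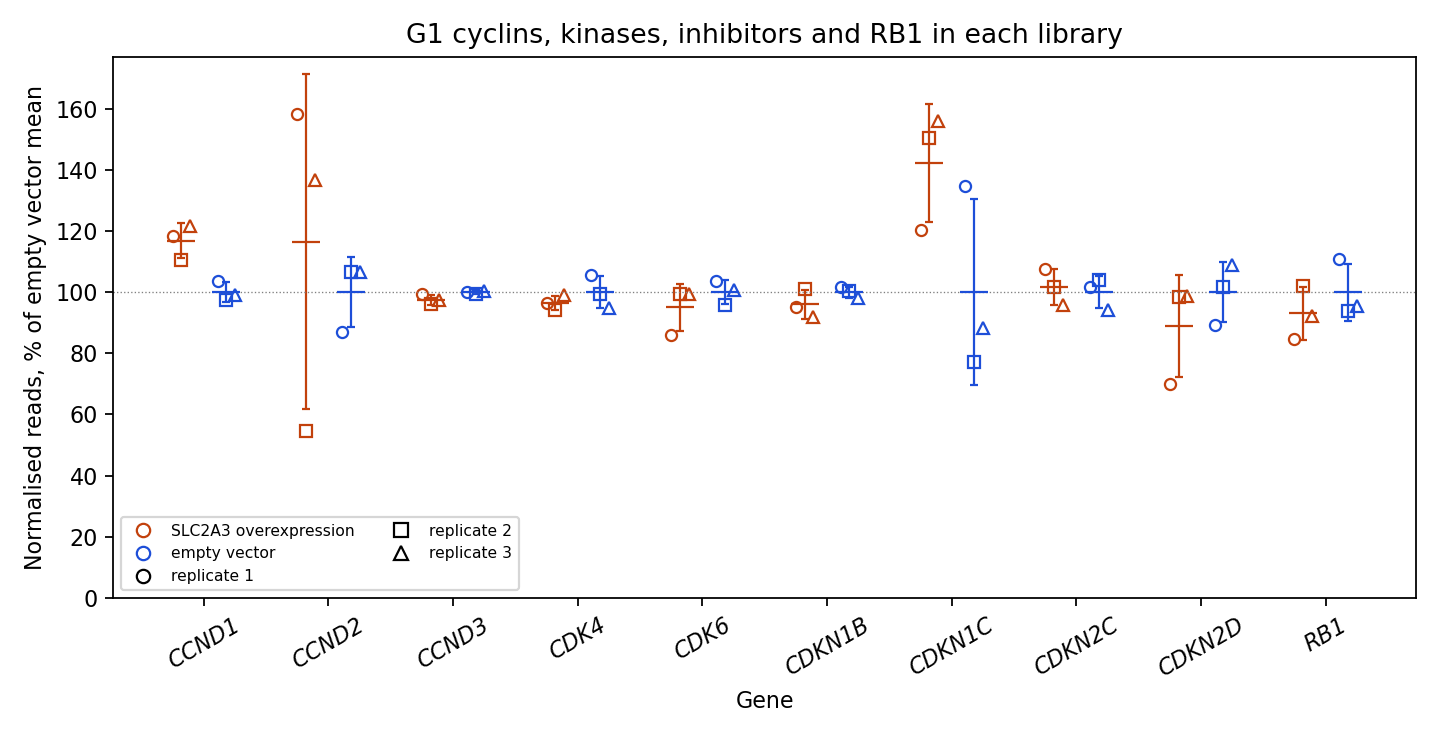
Normalised reads of each gene in each library as a percentage of that gene's empty vector mean, with SLC2A3 overexpression left of empty vector. Long bars are group means and error bars SD (n = 3 each). CCND1 shows 3 SLC2A3 libraries above all 3 empty vector libraries, CCND3 lies within a few percent of 100, and CCND2 and CDKN1C, with few reads, spread most.

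Of the cyclins, CCND1 (ENSG00000110092.4, chromosome 11, 69641087 to 69654474, GRCh38) came closest to the threshold. Its values were 1637, 1529 and 1682 normalised reads in the SLC2A3 libraries, against 1434, 1348 and 1370 in the empty vector libraries. Every SLC2A3 library was thus above every empty vector library. CCND1 averaged 1616 ± 78.9 normalised reads in the SLC2A3 group and 1384 ± 44.8 in the empty vector group, a ratio of 1.17. Its log2 fold change was 0.22 (SE 0.063, 95% interval 0.09 to 0.35, limma adjusted p = 0.0749). It passed with edgeR and TMM factors (adjusted p = 0.0435), with DESeq2 (0.0188) and with limma-voom (0.0462). Fits that left out a library used limma-trend only, and CCND1 passed in none of them. With limma-trend it had not passed on all 6 libraries either. Those fits thus cannot show whether the calls by the other methods depend on 1 library. The unadjusted p was much alike: 0.00139 by limma-trend, 0.00129 by edgeR, 0.00105 by DESeq2 and 0.00145 by limma-voom. Adjustment was over 28015 genes with limma-trend, 18630 with edgeR and limma-voom, and 9332 with DESeq2. On the opposite strand, exons of LTO1 overlap 497 bases of CCND1 exons, 10.3% of them, and the labels do not say whether counting used strand. LTO1 was at 662 ± 8.71 normalised reads in the SLC2A3 group and 660 ± 40.9 in the empty vector group.

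**Figure D3:**
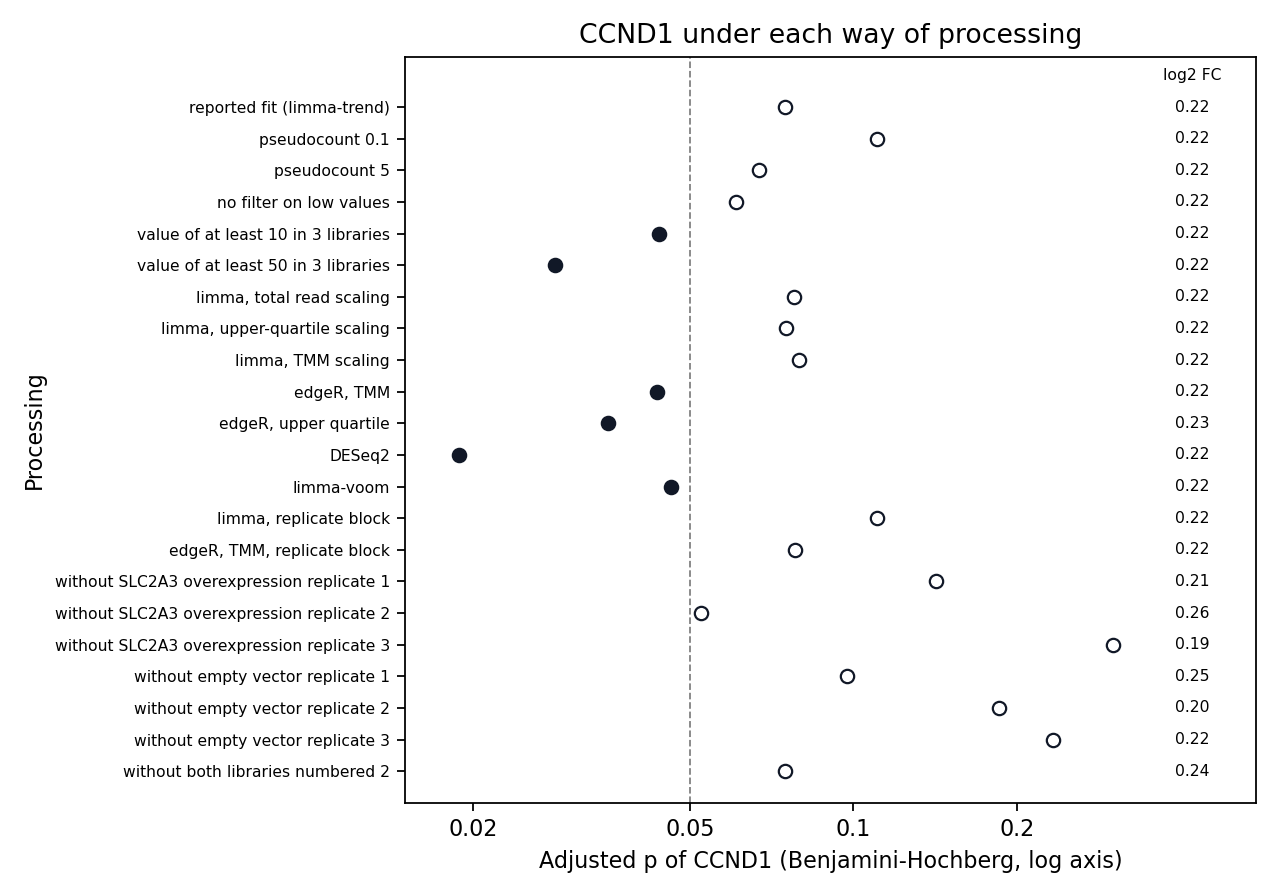
Adjusted p of CCND1 (log axis) in the reported fit and under each alternative way of processing, with the log2 fold change (log2 FC) printed at the right. Filled points lie under 0.05, marked by the dashed line; the fold change stays between 0.19 and 0.26 while the adjusted p runs from 0.0188 to 0.300.

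CCND3 (chromosome 6, 41934933 to 42050357), the D-type cyclin gene with the most reads, varied least among libraries of the 10 genes. It stood at 10220, 9892 and 10011 normalised reads in the SLC2A3 libraries, against 10304, 10230 and 10345 in the empty vector libraries. The highest SLC2A3 library lay just below the lowest empty vector library, and the log2 fold change was -0.04 (95% interval -0.12 to 0.04, limma adjusted p = 0.812). CCND3 varied by 1.65% of its mean in the SLC2A3 group and 0.567% in the empty vector group, where counting alone gives 0.99% in a library. CCND2 (chromosome 12, 4273772 to 4305350) was very low, with 22.3, 7.67 and 19.2 normalised reads in the SLC2A3 libraries, against 12.2, 15.0 and 15.0 in the empty vector libraries. It rested on 50 reads over the SLC2A3 group (95% Poisson interval 37.1 to 65.9, counting error only) and 42 over the empty vector group (30.3 to 56.8). At this depth, log2 changes of CCND2 between -0.91 and 1.09 lie inside its 95% interval, and leaving out 1 library gave -0.18 to 0.53. A protein-coding gene with no symbol shares 989 bases on the same strand, 13.8% of the CCND2 exon bases, and is listed at 0 in every library, so the CCND2 level is uncertain.

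Within each library, the log2 ratio of CCND1 to CCND3 reads was -2.64 ± 0.06 in the SLC2A3 group and -2.90 ± 0.04 in the empty vector group (SD, n = 3 each), a difference of 0.26. The groups did not overlap, and the two-sided exact permutation p was 0.1, the smallest that 3 against 3 libraries can give. The CCND1 to CDK4 ratio also did not overlap (-0.90 ± 0.04 in the SLC2A3 group and -1.18 ± 0.05 in the empty vector group, exact permutation p = 0.1). Neither did the CDKN1B to CCND1 ratio, at 0.26 ± 0.14 and 0.54 ± 0.04 in the same order (exact permutation p = 0.1). The ratio of CDK6 to CDK4 was 1.52 ± 0.12 in the SLC2A3 group and 1.54 ± 0.07 in the empty vector group (exact permutation p = 0.8), and those of CCND3 to CDK6 and of CDKN1B to CCND3 also overlapped (exact permutation p = 0.9 and 0.8). Every ratio that did not overlap contains CCND1, whose own values did not overlap between groups, so these are not separate results. All 6 ratios were chosen after the values were seen, and adjusted over the 6 the lowest p was 0.2.

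The kinases did not pass the test. CDK4 (chromosome 12, 57747727 to 57756013) had 3013, 2950 and 3095 normalised reads in the SLC2A3 libraries and 3302, 3113 and 2970 in the empty vector libraries. These ranges overlap, and the log2 fold change was -0.05 (95% interval -0.16 to 0.06, limma adjusted p = 0.802). Leaving out 1 library gave -0.087 to -0.010, with the value nearest 0 when empty vector replicate 1 was left out. CDK6 (chromosome 7, 92604921 to 92836594) had 7844, 9074 and 9071 normalised reads in the SLC2A3 libraries and 9434, 8734 and 9181 in the empty vector libraries. Only SLC2A3 replicate 1 was below all empty vector libraries, and the log2 fold change was -0.08 (95% interval -0.18 to 0.03, limma adjusted p = 0.61). Without that library it was -0.0063, and without any 1 of the others -0.11 to -0.051. For CDK4, 1369 bases or 43.2% of its annotated exon bases are shared with TSPAN31 on the opposite strand. Its level may hold reads of that gene or lack reads in the shared bases, as the way of counting is not given. TSPAN31 was at 565 ± 37.3 normalised reads in the SLC2A3 group and 564 ± 27.5 in the empty vector group.

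CDK4 is a well-known target of the transcription factor MYC, which binds the E-box, and its promoter is shown for that reason. The 250 bases before its RefSeq start (GRCh38.p14, chr12:57752311-57752560, minus strand) hold the E-box, CACGTG, which reads the same on both strands, 3 times. Capitals mark it at 216, 196 and 101 bases before the start.
CDK4 promoter: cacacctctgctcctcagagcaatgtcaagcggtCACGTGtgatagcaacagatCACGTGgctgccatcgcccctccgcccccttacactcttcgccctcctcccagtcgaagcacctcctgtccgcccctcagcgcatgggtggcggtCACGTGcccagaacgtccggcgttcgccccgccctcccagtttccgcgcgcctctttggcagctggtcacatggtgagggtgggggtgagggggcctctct
Of 35116 RefSeq promoter windows of 300 bases, 7.26% hold at least 1 E-box and 0.094% at least 3. RefSeq windows were at hand for 7 of the 10 genes, 12 windows in all. The only RB1 window (chromosome 13, 48476200 to 48476499) lies inside the gene, whose annotated start is at 48303726. The bases before that start were thus not searched. Besides CDK4, 1 of the windows of CDK6 and 2 of those of CDKN2C hold 1 E-box each. A match is a description of these letters and not a binding site. MYC itself had 3535 ± 99.8 normalised reads in the SLC2A3 group and 3499 ± 297 in the empty vector group (log2 fold change 0.02, limma adjusted p = 0.947).

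Among the 4 inhibitors of the set, CDKN1B (p27; chromosome 12, 12715058 to 12722371) was the most abundant. It had 1920, 2041 and 1853 normalised reads in the SLC2A3 libraries and 2049, 2025 and 1978 in the empty vector libraries. The groups overlap through SLC2A3 replicate 2, and the log2 fold change was -0.06 (95% interval -0.18 to 0.06, limma adjusted p = 0.782). CDKN1C (p57; chromosome 11, 2883213 to 2885773) was low, at 43.6, 54.7 and 56.6 normalised reads in the SLC2A3 libraries, against 48.9, 28.0 and 32.0 in the empty vector libraries. It had the largest fitted log2 change of the 10, 0.53, with a 95% interval of -0.09 to 1.14 and a limma adjusted p of 0.525. Empty vector replicate 1 lay above 1 of the SLC2A3 libraries, so the groups overlap, and leaving out 1 library gave 0.37 to 0.76. The reads behind it were 157 over the SLC2A3 group (95% Poisson interval 133 to 184) and 108 over the empty vector group (88.6 to 130).

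The INK4 inhibitors, which act on CDK4 and CDK6 alone, also overlapped. CDKN2C (p18; chromosome 1, 50960745 to 50974633) had 982, 928 and 875 normalised reads in the SLC2A3 libraries and 930, 951 and 860 in the empty vector libraries. Its log2 fold change was 0.02 (95% interval -0.13 to 0.17, limma adjusted p = 0.95), the smallest of the 10 in size. CDKN2D (p19; chromosome 19, 10566462 to 10569059) had 184, 259 and 260 normalised reads in the SLC2A3 libraries and 235, 268 and 286 in the empty vector libraries. SLC2A3 replicate 1 stood apart at the low end, and the log2 fold change was -0.18 (95% interval -0.46 to 0.10, limma adjusted p = 0.689). Without that library it was -0.017, and without any 1 of the others -0.26 to -0.12.

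RB1 (chromosome 13, 48303726 to 48599436), the substrate of the D-type cyclin kinases, had 725, 874 and 788 normalised reads in the SLC2A3 libraries and 947, 803 and 816 in the empty vector libraries. Its log2 fold change was -0.10 (95% interval -0.28 to 0.07, limma adjusted p = 0.711), and the groups overlap. It was -0.040 without SLC2A3 replicate 1, -0.029 without empty vector replicate 1, and -0.17 to -0.10 without any 1 of the other libraries. As with CDK6 and CDKN2D, SLC2A3 replicate 1 was the lowest library. It was lowest for 3 of the 10 genes, while among 11730 genes with a mean of at least 100 normalised reads it was lowest for 20.8%. SLC2A3 replicate 2 was also lowest for 3 of the 10, against 20.7% of the 11730 genes. Empty vector replicate 1 was highest for 4 of the 10, against 18.1% of the 11730 genes. The 10 include CCND2 and CDKN1C, whose means lie below 100.

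The other genes of the G1 to S transition, 49 in 5 lists, showed 0 calls by limma, where 1.49% of all tested genes were called, and 11 at an unadjusted p under 0.05, 2 higher and 9 lower. At that mark stood 11.8% of all tested genes, 5.63% higher and 6.12% lower. edgeR with TMM factors called 2 of them lower, E2F2 and CDKN1A, and 0 higher, where it called 3.29% of its tested genes. The median log2 fold change of the 49 was -0.04, with 17 above and 32 below 0, where all 28015 tested genes had 14080 above and 13935 below. Groups did not overlap for 14 of them, 3 higher and 11 lower, against 8.04% of all tested genes higher and 8.27% lower.

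Of 9 genes for cyclins E and A, CDK2 and the CDK activators, none passed (list median -0.06). CDC37, the chaperone partner that loads CDK4, was the most abundant, with 17217 ± 1050 normalised reads in the SLC2A3 group and 16656 ± 543 in the empty vector group (limma adjusted p = 0.761). CDK2, the kinase of cyclins E and A, had 1260, 1238 and 1325 normalised reads in the SLC2A3 libraries and 1530, 1491 and 1424 in the empty vector libraries. All 3 SLC2A3 libraries lay below the empty vector ones, at a log2 fold change of -0.22 (95% interval -0.35 to -0.09, limma adjusted p = 0.0903). Cyclin E1 (CCNE1) had a log2 fold change of -0.18 and cyclin E2 (CCNE2) of -0.37 (limma adjusted p = 0.386 and 0.347). CDK2, CCNE1 and CCNE2 were chosen after their values were seen, as were E2F2, E2F1, RBX1, CDKN2A, CDKN2B and MYC.

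Of 17 pocket protein, E2F and DREAM genes, none passed, and 14 of 17 had a log2 fold change below 0 (list median -0.06). Over all 28015 tested genes, 13935 were below 0. Whether the lean of the list differs from that was not tested. E2F2, an activating E2F, had 445, 409 and 425 normalised reads in the SLC2A3 libraries and 521, 530 and 563 in the empty vector libraries. These values did not overlap, with a log2 fold change of -0.34 (95% interval -0.52 to -0.15, limma adjusted p = 0.0578). E2F1, its relative, had 2584, 2250 and 2534 normalised reads in the SLC2A3 libraries and 2597, 2892 and 2904 in the empty vector libraries (log2 fold change -0.19, limma adjusted p = 0.131). TFDP1, a dimer partner of E2F factors and the most abundant of the list, had 4574 ± 124 normalised reads in the SLC2A3 group and 4757 ± 175 in the empty vector group (limma adjusted p = 0.733).

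The 3 other CDK inhibitors did not pass either. CDKN1A (p21), the most abundant of them, had 4548, 4002 and 4420 normalised reads in the SLC2A3 libraries and 4929, 4865 and 4814 in the empty vector libraries. All SLC2A3 libraries were the lower ones, at a log2 fold change of -0.17 (95% interval -0.28 to -0.07, limma adjusted p = 0.0858). CDKN2B (p15) averaged 61.3 ± 4.10 normalised reads in the SLC2A3 group and 40.6 ± 9.06 in the empty vector group (limma adjusted p = 0.364), and CDKN2A 428 ± 58.6 and 435 ± 48.6 (limma adjusted p = 0.967).

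Among 11 genes of the ubiquitin ligases that degrade G1 cyclins and p27, none passed (list median -0.02). CKS1B, the cofactor by which SKP2 recognises p27 and the most abundant of the list, had 5631 ± 81.3 normalised reads in the SLC2A3 group and 5286 ± 266 in the empty vector group (limma adjusted p = 0.449). The RING subunit RBX1 had a log2 fold change of 0.15 (95% interval 0.04 to 0.26, limma adjusted p = 0.224). Of 9 transcription regulators of the D-type cyclins and inhibitors, none passed (list median 0.02). MYB, a haematopoietic factor and the most abundant of them, had 10766 ± 813 normalised reads in the SLC2A3 group and 10213 ± 367 in the empty vector group (limma adjusted p = 0.599).

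**Figure D4:**
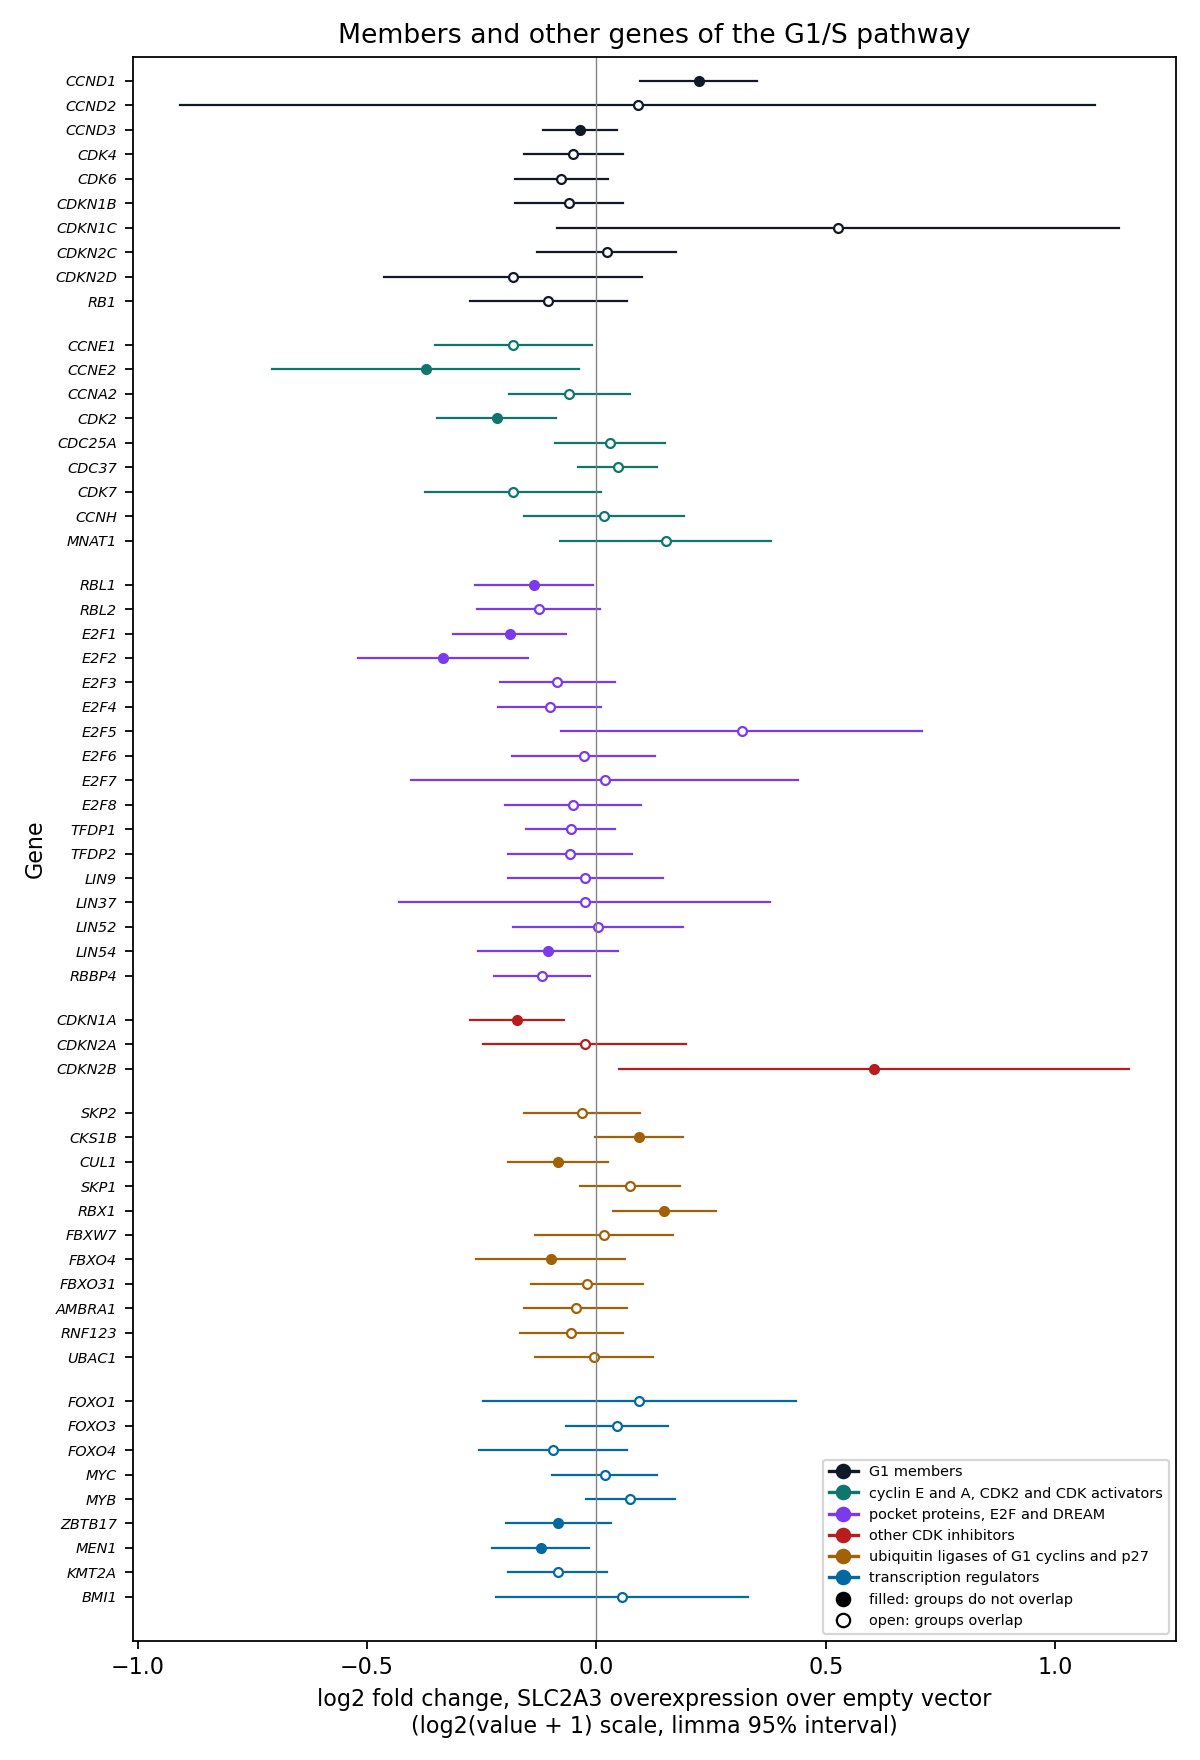
Log2 fold change (SLC2A3 overexpression over empty vector, log2(value + 1) scale) with its limma 95% interval for the 10 genes at the top and the 49 other pathway genes below, coloured by list. Filled points mark genes whose groups do not overlap; intervals are not adjusted for the number of genes, and no gene shown has an adjusted p under 0.05.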

How the data were processed

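RNA was extracted with Trizol and made into libraries with a directional NEBNext kit, per the labels' protocols. BWA, TopHat2 and hg38 are listed, without roles, per the submitters' processing notes. The counter and gene annotation are not given in the sources used here. The deposited values are a normalised signal; no label or header says how they were made, and from the values they are read counts divided by 1 factor per library (0.936 to 1.08), equal to the median-of-ratios factors of DESeq2. Dividing each library by its lowest value above 0 gave whole reads, within 0.001, for 100% of values; these are the recovered reads. Depth is given in the report. Of 60660 IDs, 60641 had a symbol in the name table or GENCODE 29, whose GRCh38 coordinates and exon lengths are used.

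Genes reaching 1 normalised read in 3 or more libraries were fitted as log2(value + 1) with limma 3.58.1 (trend, group only) in R 4.3.3, Benjamini-Hochberg threshold 0.05. Adding 1 generally understates the change of low genes, though CCND2 moved the other way (log2 fold change 0.086, 0.090 and 0.093 with a pseudocount of 0.1, 1 and 5). Fold changes are SLC2A3 overexpression over empty vector. Alternatives were edgeR 4.0.16, DESeq2 1.42.0 and limma-voom on recovered reads, other scalings, filters and pseudocounts, a replicate block, and left-out libraries. Libraries were left out with limma-trend only. The functions were tested on simulated data. No replicate pair agreed within sampling noise (chi-square per gene 3.50 to 6.78). The members and lists were chosen with earlier results of these data known. Named genes are all members, any pathway gene past the threshold, and the most abundant gene of each pathway list. SLC2A3, cell type markers and genes whose exons overlap a member are also named. RN7SL1 was in no list and was picked outside these rules. Other pathway genes are said to have been chosen after their values were seen. Genes most like a member in pattern were to be named for members past the threshold, and there were none.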

Additional observations from a re-analysis of the deposited data

How the results depend on the processing

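Of the 10 members, 9 stayed uncalled under each of the 19 to 21 alternatives with an adjusted p; DESeq2 gave none for CCND2, CDKN1C and CDKN2D, and the filter at 50 removed CCND2 and CDKN1C. CCND1 passed in 6 of 21 alternatives, with 1 member called higher in each: at a log2 fold change of 0.22 with a value of at least 10 or at least 50 in 3 libraries (fewer genes tested; adjusted p = 0.0439 and 0.0282), with edgeR and TMM, DESeq2 and limma-voom, and at 0.23 with edgeR and upper-quartile factors (adjusted p = 0.0354). The share of all tested genes called higher was 1.44% with the filter at 10 and 2.41% with the filter at 50. That share was 1.53% with edgeR and TMM, 1.63% with edgeR and upper-quartile factors, 3.70% with DESeq2 and 1.51% with limma-voom. With limma-trend, leaving out 1 library gave CCND1 0.19 to 0.26 (adjusted p = 0.0525 to 0.300), and leaving out both libraries numbered 2, highest in RN7SL1, 0.24 (0.0748). The replicate numbers did not pair the libraries (correlations -0.11, 0.01 and -0.0014 over 11730 genes, 0 libraries closest to their own number); with a replicate block, CCND1 kept 0.22 with adjusted p = 0.110 by limma and 0.0779 by edgeR. CCND2 and CDKN2C changed sign in 3 and 2 alternatives, uncalled in each. Leaving out 1 library gave -0.097 to -0.027 for CDKN1B, -0.020 to 0.065 for CDKN2C and -0.049 to -0.025 for CCND3. Of the 49 pathway genes, those called lower numbered 1 with no filter on low values and with edgeR and upper-quartile factors, 2 with the filter at 10, with edgeR and TMM, and with limma-voom, 4 with the filter at 50 and with DESeq2 (E2F2, E2F1, CDK2 and CDKN1A), and 0 to 1 when 1 library was left out. Over all 28015 genes, 194 were called higher and 224 lower, against 140 and 144 with a pseudocount of 0.1. The higher and lower calls were 235 and 283 of 37328 with no filter (0.758% lower), 269 and 315 of 18700 with the filter at 10 (1.68% lower), and 322 and 417 of 13374 with the filter at 50 (3.12% lower). Of 18630 genes they were 285 and 328 with edgeR and TMM (1.76% lower), 303 and 265 with edgeR and upper-quartile factors (1.42% lower), and 281 and 323 with limma-voom (1.73% lower). They were 345 and 459 of 9332 with DESeq2 (4.92% lower). They were 100 to 222 and 88 to 244 when 1 library was left out (100 and 88 with SLC2A3 replicate 3 left out, 157 and 140 with SLC2A3 replicate 2 left out, 134 and 244 with SLC2A3 replicate 1 left out; of the empty vector libraries, leaving out replicate 3 gave 121 and 100, and replicate 1 gave 132 for each). The cause of these moves was otherwise not tested. With the longest transcript as length, the D-type cyclin shares were 8.20% and 6.95% for CCND1, 0.055% and 0.047% for CCND2 and 91.7% and 93.0% for CCND3, and the kinase shares 66.1% and 65.7% for CDK4 and 33.9% and 34.3% for CDK6, in the SLC2A3 and empty vector groups. Low read numbers limit CCND2 and CDKN1C.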
